A study of Mus musculus with 21 samples.

Results

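The regions described here were bound by C/EBPα in WT mouse hepatocytes, stood in chromatin marked by H3K4me2 there, and had no C/EBPα peak in hepatocytes carrying the Arid1a deletion. They numbered 618 of the 27244 regions obtained by merging 4 lists of C/EBPα peaks. Members were chosen by the presence of peaks: a region was taken when both WT lists had a peak in it, neither KO list did, and it shared at least 1 bp with an H3K4me2 peak in each of the 3 WT lists. KO hepatocytes had the genotype Arid1a Fl/Fl; Alb-cre, in which Cre recombinase is expressed from the albumin promoter, and WT hepatocytes had Arid1a Fl/Fl, so both groups carried the floxed alleles. Another group carried V5-Arid1a, a tagged form of the gene, and gave 1 library. All were perfused primary hepatocytes from livers of mice of a mixed C57/B6 and 129 strain at postnatal day 90. Proteins and the histone mark were located by chromatin immunoprecipitation and sequencing, and each library is known here only by its list of peaks. There were 2 KO and 2 WT libraries for C/EBPα, 3 KO and 3 WT for H3K4me2, and the single V5-Arid1a library, called ARID1A below.

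C/EBPα is a basic leucine zipper transcription factor that maintains the metabolic programme of differentiated hepatocytes and restrains their growth. ARID1A is a DNA-binding subunit of the BAF form of the SWI/SNF complex, which uses ATP to move or evict nucleosomes and so opens DNA to transcription factors. H3K4me2, dimethylation of lysine 4 on histone H3, is found at promoters and at enhancers that are active or primed. The comparisons ask what happened to the mark where C/EBPα was lost, whether ARID1A sat there, and near which genes.

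The sequences below were shown because they set individual lost regions beside an annotated transcript start and the motif C/EBP factors are known to bind. For this motif the letters TTGCNNAA on either strand were searched. The sequences are the bases upstream of that start that lay inside the lost region, read 5′ to 3′ on the strand of the gene. They come from RefSeq promoters of the build mm10, and capitals mark a TTGCNNAA match. A gene can have more than 1 start, and the bases shown for Cidec, Extl2, Trak1 and Mt1 lay inside the annotated gene. Trak1, for example, spans chr9:121297502-121474919. Ces1c, which encodes a carboxylesterase secreted into plasma, has chr8:93131284-93131533 on the minus strand. Cidec, a lipid droplet protein, has chr6:113434794-113435014 on the minus strand. Extl2, a glycosyltransferase acting on heparan sulfate precursors, has chr3:116008134-116008296 on the plus strand, and its region also held an ARID1A peak. Trak1, an adaptor for mitochondrial transport, has chr9:121366757-121366957 on the plus strand. Txndc5, an oxidoreductase of the endoplasmic reticulum, has chr13:38528825-38529074 on the minus strand. Mt1, which encodes a metal-binding metallothionein, has chr8:94178986-94179088 on the plus strand and no match in these bases. The sequences with a match were picked for display, and most of those extracted in this way had none.
Ces1c: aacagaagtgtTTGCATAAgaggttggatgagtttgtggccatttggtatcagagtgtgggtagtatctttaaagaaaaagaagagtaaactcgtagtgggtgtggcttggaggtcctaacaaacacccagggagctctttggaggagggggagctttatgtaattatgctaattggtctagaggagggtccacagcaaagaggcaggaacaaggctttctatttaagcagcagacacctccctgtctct
Cidec: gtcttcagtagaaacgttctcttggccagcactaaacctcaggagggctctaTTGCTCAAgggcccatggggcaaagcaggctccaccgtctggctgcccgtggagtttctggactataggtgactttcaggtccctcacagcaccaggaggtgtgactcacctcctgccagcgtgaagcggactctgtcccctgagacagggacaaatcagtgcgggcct
Extl2: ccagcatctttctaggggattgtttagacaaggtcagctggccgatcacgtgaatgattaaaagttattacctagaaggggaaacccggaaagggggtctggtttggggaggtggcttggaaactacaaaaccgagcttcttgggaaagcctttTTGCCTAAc
Trak1: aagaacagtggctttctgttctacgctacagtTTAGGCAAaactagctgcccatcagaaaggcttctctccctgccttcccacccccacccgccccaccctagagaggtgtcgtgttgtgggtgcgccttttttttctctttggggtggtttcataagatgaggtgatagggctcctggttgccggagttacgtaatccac
Txndc5: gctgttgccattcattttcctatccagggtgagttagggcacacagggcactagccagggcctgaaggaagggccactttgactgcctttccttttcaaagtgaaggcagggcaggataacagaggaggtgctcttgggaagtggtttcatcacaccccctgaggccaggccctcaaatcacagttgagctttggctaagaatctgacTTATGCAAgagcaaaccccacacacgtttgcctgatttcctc
Mt1: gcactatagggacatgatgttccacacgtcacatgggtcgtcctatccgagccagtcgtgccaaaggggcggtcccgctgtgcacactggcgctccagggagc

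Promoter windows of 250 bases before to 50 after the start were matched to members sharing at least 150 bp with them, which gave 35 windows of 31 genes. A match anywhere in a window was counted, so it need not lie inside the lost region. Windows are not independent, since starts of 1 gene can differ by a base, as at Acot5 and Wfdc2, and a site can then count more than 1 time. TTGCNNAA stood in 11 of the 35 (31.4%, 95% interval 16.9 to 49.3), in 27.2% of 1318 windows at kept, marked regions, and in 10.8% of all 32851 windows of the same length. Kept regions are those with a C/EBPα peak in all 4 lists, and kept, marked regions are the 7019 of them that also had H3K4me2 in all 3 WT lists. The interval for members takes in the kept value, so a difference was not detectable with 35 windows. Counted by gene, 10 of 31 (32.3%, 16.7 to 51.4) had a window with TTGCNNAA, against 28.5% of 1196 genes at kept, marked regions and 12.2% of all genes. TGACTCA, the letters bound by AP-1, stood in 5 of the 35 windows (14.3%, 4.81 to 30.3), in 4.86% at kept, marked regions and in 5.20% of all windows. By gene it was 4 of 31 (12.9%, 3.63 to 29.8), against 5.18% and 5.95%. TGTTTAC, a forkhead motif, and CAAAGTCCA, an HNF4 motif, had no match in the 35 windows, against 3.41% and 0.986% at kept, marked regions, and in 35 windows a count of 0 allows up to 10% (exact upper limit). Bases outside promoter windows were not analysed here, so most members have no sequence shown.

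Among miRNA genes, the closest to a lost region were a pair known to be abundant in liver. A member at chr19:6264880-6265207 overlapped the hairpin of Mir192 (chr19:6264844-6264932) and lay 152 bp from that of Mir194-2. The mature sequences are shown for identity, with the seed, bases 2 to 8, in capitals, and the 2 miRNAs do not share a seed.
mmu-miR-192-5p: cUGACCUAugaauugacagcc
mmu-miR-194-5p: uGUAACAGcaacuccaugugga
At this region H3K4me2 ranked at percentiles 70.5, 93.0 and 94.7 of KO lists 1 to 3, against 75.1, 85.1 and 71.6 of WT lists 1 to 3. A percentile here is the rank of the strongest overlapping peak by −log10 q within its own list, since the deposited values depend on the depth of each library. The mark was thus present in every library at a site where C/EBPα had no KO peak. Another member, at chr16:17125058-17125429, lay 562 bp from Mir301b and 916 bp from Mir130b and kept the mark in 1 KO list. The other miRNA hairpins within 5 kb of a member were Mir7035, Mir8113, Mir6925 and Mir3069, between 2113 and 2756 bp away.

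The labelled cell type was visible in the lists. Of 8 hepatocyte marker genes such as Alb and Ttr, 8 carried H3K4me2 at an end in every list, and 4 carried C/EBPα in every list. The counts with H3K4me2 in all 6 lists were 2 of 8 for biliary, 2 of 10 for endothelial, 1 of 10 for stellate and fibroblast, 0 of 12 for Kupffer cell and leukocyte, and 3 of 9 for oncofetal markers. Lists ran to 16178 and 17781 peaks for C/EBPα in KO and 17733 and 23646 in WT, to 24908, 54544 and 175797 for H3K4me2 in KO and 34849, 61246 and 49802 in WT, and to 5726 for ARID1A. H3K4me2 KO list 3 stands apart, with the most and the narrowest peaks (median width 429 bp, against 634 to 918 bp in the other 5 lists). Comparisons of the mark in KO between classes of regions are therefore also given without it. At single regions, a high percentile in KO list 3 can stand for a low −log10 q, as at Cyp7a1 below, where 85.1 is a value of 1.77. Sequencing depth is unknown, a missing peak does not show that nothing was bound, and the deletion of Arid1a cannot be checked in peak lists. The labels do not say whether libraries came from separate or pooled animals, so spreads and p-values measure only the differences between these libraries, which may be technical.

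Loss of C/EBPα was rarer at marked sites than elsewhere, a count set by the rule and given as a description. Both WT lists had a peak at 16529 regions, and 3189 of them (19.3%) had none in either KO list. Of the 8264 that were also marked in all 3 WT lists, 618 (7.48%) had none, 627 had a peak in 1 KO list, and 7019 had a peak in both. The other 2571 lost regions had the mark in 2 WT lists (598 regions), 1 (834) or none (1139). Just outside the rule, 598 lost regions missed the mark in 1 WT list, by a median gap of 5478 bp, and the nearest, by Hoxc4, a homeobox gene, missed it by 1 bp. Just inside, 2 members outside genes were among those that overlapped the mark by the fewest bases, 3 bp and 4 bp. Their nearest genes were Bcl11a, a zinc finger repressor 112944 bp away, and Fermt2, an integrin activator 14598 bp away. On the C/EBPα side, the nearest KO peak to a member lay 99 bp away, inside Mdfic (chr6:15793568-15793847), then 142 bp at C9. Next was 149 bp, at a member outside genes whose nearest gene, 34492 bp away, was Insig1, a brake on sterol synthesis. The median distance to a KO peak was 17827 bp, and 29 members had one within 500 bp. Of the 627 regions with a peak in 1 KO list, 196 had it in list 1 and 431 in list 2. The number of members rested on the lists: it was 1046 without KO list 2, 813 without KO list 1, 1488 without WT list 1 and 722 without WT list 2.

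Regions chosen with part of the C/EBPα lists were also read in the lists that had no say in that choice. Regions were chosen with 1 KO and 1 WT list plus the mark, and the other KO and WT lists were then read. These sets are larger than that of the members. By the rule, members are those of each set with a held-out WT peak and no held-out KO peak. The shares are thus a description and lend the members no support. With KO list 1 and WT list 1, 1222 regions were chosen, and 38.8% had a peak in the held-out KO list, against 85.8% in the held-out WT list. With KO list 2 and WT list 1 the shares of 968 regions were 22.7% in the held-out KO list and 84.1% in the held-out WT list. With WT list 2 as the choosing list the gap was smaller, at 35.9% KO against 45.0% WT of 2331 regions with KO list 1, and 21.9% KO against 42.6% WT of 1913 regions with KO list 2. In all 4 ways the held-out KO share was lower than the held-out WT share, by 9.09 to 61.4 percentage points. WT list 2 is the longer of the pair, and regions it chose were missing from WT list 1 more often than not.

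Lost, marked regions lay at gene ends less often than kept, marked ones did. A gene end, meaning within 1 kb of either annotated end of a protein-coding gene, held 78 members (12.6%, 10.1 to 15.5), against 24.96% (23.95 to 25.99) of kept, marked regions and a background of 23.2% of all marked regions. Inside genes lay 311 members (50.3%) and outside genes 229 (37.1%, 33.2 to 41.0), against 46.0% and 29.1% of kept, marked regions. Lost regions not marked in all WT lists stood at gene ends in 3.62% and outside genes in 51.1%. Of all 16529 regions in both WT lists, marked or not, 14.3% stood at gene ends, 47.7% inside genes and 38.0% outside genes. These shares are near those of members. The median distance to a gene end was 18150 bp for members, 7343 bp for kept, marked regions and 30037 bp for the other lost regions. All intervals are exact binomial (Clopper-Pearson) 95% intervals over regions, which cover counting only, since regions of the same libraries are not replicates. The share at gene ends depended on the window, with 29.1% at 5 kb.

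Members were spread along the chromosomes and rarely clustered. The nearest other member lay at a median of 876691 bp, and 24 members (3.88%) had another within 10 kb. A kept region lay within 10 kb of 174 members (28.2%, 24.6 to 31.9), at a median distance of 31237 bp, against 46.2% of kept, marked regions, at a median of 12084 bp. By chromosome, the share of marked regions that was lost lay between 4% on chromosome X (3 of 75) and 10% on chromosome 1 (55 of 539). Members were narrower, with a median merged width of 423 bp, against 572 bp for kept, marked regions. A kept region joins KO and WT peaks and a member WT peaks alone, so the rule itself can widen kept regions. A wider region can also overlap another peak more easily, and the part of this in other shares was not tested. Within WT lists 1 and 2 the peaks at members ranked at median width percentiles of 40.8 and 51.2, against 64.2 and 71.2 for kept, marked regions. These percentiles are a description, since the lists chose the members.

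**Figure D1:**
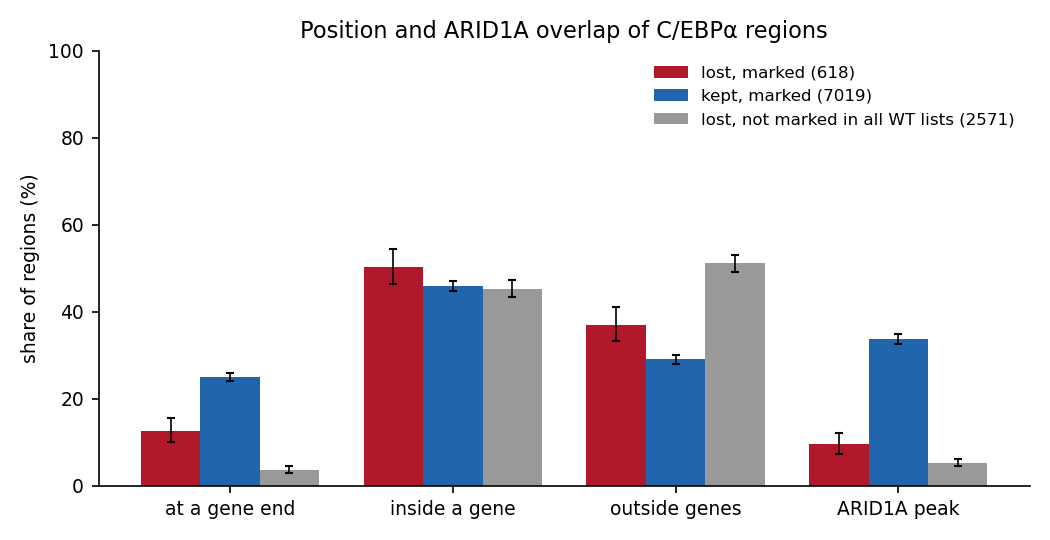
Share of regions (%) at a gene end, inside a gene, outside genes and with an ARID1A peak, for lost, marked (618), kept, marked (7019) and lost regions not marked in all WT lists (2571), with exact 95% intervals over regions. Members lie between the other classes at gene ends (12.6%, against 24.96% kept) and have an ARID1A peak in 9.55%, against 33.8% of kept regions.

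ARID1A peaks were less common at lost, marked regions than at kept, marked ones. Of the members 59 (9.55%, 7.35 to 12.1) held an ARID1A peak, against 2369 kept, marked regions (33.8%, 32.6 to 34.9) and a background of 30.4% of all marked regions. Among lost regions not marked in all WT lists it was 5.25% (4.42 to 6.18). There is 1 ARID1A library and no test. The difference was -24.2 percentage points, and members held an ARID1A peak less often in each of the 3 positions. At gene ends 4 of 78 members (5.13%) held a peak, against 14.2% of kept, marked regions. Inside genes it was 10.6% against 39.8%, and outside genes 9.61% against 41.0%. Width of the C/EBPα peak moved with it. In 5 strata of WT width, ordered from narrow to wide, 5.18%, 7.64%, 10.9%, 22.2% and 15.3% of members held an ARID1A peak, against 12.7%, 22.9%, 36.9%, 42.9% and 47.4% of kept, marked regions. Averaged within these strata the difference was -16.0 points, and within strata of WT H3K4me2 strength -29.4 points, in comparisons added after the data had been seen.

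The 5 members with the widest WT C/EBPα peaks and an ARID1A peak lay inside genes or outside them, and none was at a gene end. Of all 59 members with an ARID1A peak, only 4 were at gene ends. The widest lay inside Gm4131, a gene without a known role (chr14:62468462-62469376), with width percentiles of 98.2 in both WT lists and no H3K4me2 in KO. Others lay inside Aplp2, a relative of the amyloid precursor protein (chr9:31207571-31208317, percentiles 95 and 95.2), and inside Tspan12, a tetraspanin of Norrin and Frizzled signalling (chr6:21803626-21804278, 91.9 and 90.2). A further pair lay outside genes, 220610 bp from Ankrd55 (chr13:112067097-112067841) and 320907 bp from Jarid2, a cofactor of Polycomb repressive complex 2 (chr13:44408911-44409867). H3K4me2 in KO was absent by Ankrd55 and present in 2 lists at each of Aplp2, Tspan12 and Jarid2.

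H3K4me2 was found less often in KO lists at the lost regions than at the kept ones, although both had been marked in all 3 WT lists. Peaks in KO lists 1, 2 and 3 covered 173 (28.0%), 459 (74.3%) and 296 (47.9%) of the 618 members, against 72.9%, 97.2% and 77.9% of the 7019 kept, marked regions. In each of the 3 libraries the member share was the lower, by 22.9 to 44.9 percentage points. The means were 50.1% ± 23.2 for members and 82.7% ± 12.8 for kept, marked regions (SD, n = 3 KO libraries). The difference of -32.6 ± 11.2 points exceeded its spread, and an exact sign-flip permutation test over the 3 libraries gave a two-sided p = 0.25, the smallest that 3 libraries allow, so a p under 0.05 could not be reached. Without KO list 3 the difference was -33.9 points.

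The mark persisted at some members and not at others. No KO list had H3K4me2 at 120 members (19.4%, 16.4 to 22.8), against 95 kept, marked regions (1.35%) and a background of 2.99% of all marked regions. All 3 KO lists had it at 132 members (21.4%, 18.2 to 24.8), against 62.2% of kept, marked regions and a background of 57.2%. Another 200 members (32.4%) had it in 1 KO list and 166 (26.9%) in 2. The library mattered: 164 members had the mark in KO list 2 alone, 33 in KO list 3 alone and 3 in KO list 1 alone. Left out in turn, KO list 2 gave 46.0% of members without the mark in KO, KO list 3 gave 24.8% and KO list 1 gave 19.9%.

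**Figure D2:**
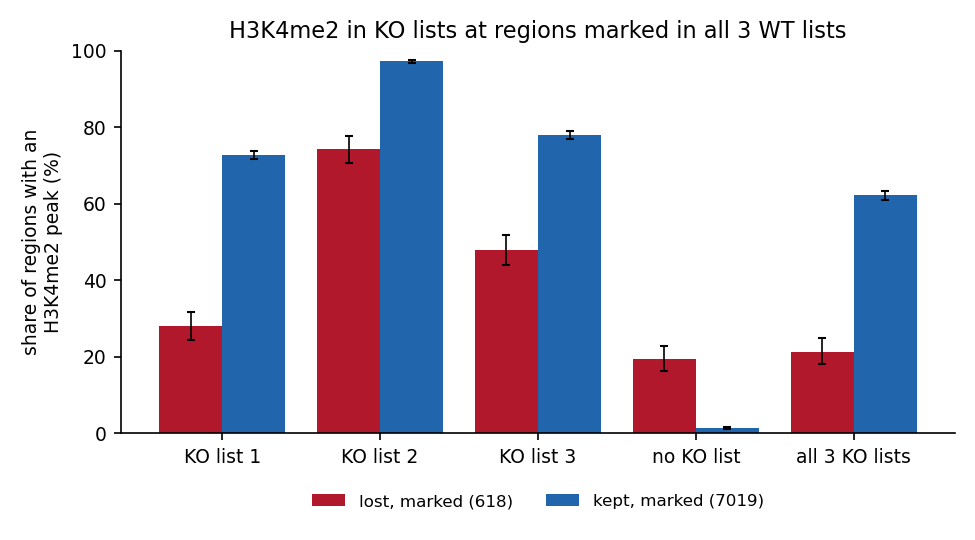
Share of lost, marked (618) and kept, marked (7019) regions with an H3K4me2 peak in each KO list, in no KO list and in all 3, with exact 95% intervals over regions. In every KO list the lost regions are the lower class, at 28.0%, 74.3% and 47.9%, against 72.9%, 97.2% and 77.9%.

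Members that kept the mark in KO were those with the stronger mark in WT, and they lay more often at gene ends. The median of the mean WT percentile was 39.0, 45.4, 53.4 and 76.9 for members with the mark in 0, 1, 2 and 3 KO lists. Gene ends made up 3.33%, 6.5%, 14.5% and 28.0% of these groups, and the median distance to a gene end in the last of them was 3511.5 bp, against 22178 to 23480 bp in the others. With KO lists 1 and 2 alone, a setting added after the data had been seen here and in the comparisons of strata and shared peaks that leave out KO list 3, members with the mark in 0, 1 and 2 of them (153, 298 and 167) had median WT percentiles of 38.9, 47.9 and 75.04, and 3.92%, 10.1% and 25.1% of them stood at gene ends. ARID1A peaks stood at 14, 14, 17 and 14 members, or 11.7%, 7%, 10.24% and 10.6%, with no order. Read the other way, no KO list had the mark at 14 of the 59 members with ARID1A (23.7%, 13.6 to 36.6) and at 106 of the 559 without (18.96%, 15.8 to 22.5), and these intervals overlap. By position, the mark stood in KO lists 1 to 3 at 56.4%, 89.7% and 74.4% of members at gene ends and at 21.8%, 67.7% and 39.3% of those outside genes.

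The mark in WT was weaker at members than at kept regions, which moves with the result above. Median percentiles in WT lists 1 to 3 were 46.4, 67.5 and 51.4 for members, against 61.0, 78.5 and 66.6 for kept, marked regions. Regions were therefore also compared within 5 strata of the mean WT percentile, a comparison added after the data had been seen. From the weakest to the strongest stratum, a KO list marked on average 31.9%, 47.4%, 58.1%, 72.3% and 82.8% of members (233, 147, 93, 83 and 62 regions), against 59.8%, 75%, 85.4%, 93.0% and 95.8% of kept, marked regions. Members were lower in every stratum, and in each of the 3 KO lists within it. The difference averaged within strata was -25.3 points, against -32.6 without strata, and within strata without KO list 3 it was -26.7 points. The share of marked regions that had lost C/EBPα was 14.1%, 8.89%, 5.63%, 5.02% and 3.75% from the weakest to the strongest stratum.

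**Figure D3:**
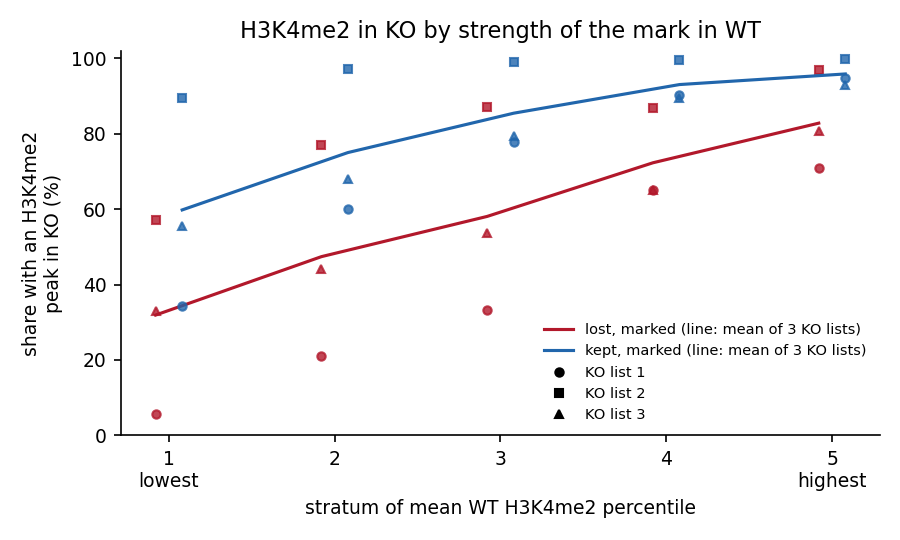
Share of regions with an H3K4me2 peak in KO (%) by stratum of the mean WT H3K4me2 percentile, for lost, marked and kept, marked regions; symbols are the 3 KO lists and lines their means. The line for lost regions runs from 31.9% to 82.8% and stays below that for kept regions, from 59.8% to 95.8%.

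A difference from kept regions was present in WT lists as well, once a WT list that had not chosen the regions was read. Lost regions marked in WT lists 2 and 3 numbered 859, and KO lists 1 to 3 marked 21.1%, 65.9% and 41.4% of them, against 71.9% in the held-out WT list 1. With WT list 2 held out, the KO shares of 672 lost regions were 26.0%, 69.8% and 46.3%, against 92.0% in WT. With WT list 3 held out, the KO shares of 921 were 21.0%, 66.0% and 43.2%, against 67.1% in WT. In 9 of 9 pairs the KO share was lower than the held-out WT share, although KO list 2 and the held-out WT list 3 differed by little. Kept regions were marked in 67.1%, 95.5% and 74.8% by KO lists 1 to 3 and 90.9% by the held-out WT list 1, in 72.3%, 96.6% and 77.5% against 98.9% by WT list 2, and in 66.4%, 95.7% and 73.8% against 84.0% by WT list 3. Set against kept regions within the same list, the log2 odds of the mark at lost regions was -2.93, -3.44 and -2.07 in KO lists 1 to 3 and -1.96 in the held-out WT list 1. It was -2.89, -3.62 and -1.997 in KO against -2.92 in the held-out WT list 2, and this WT value lay within the KO range. It was -2.90, -3.53 and -1.89 in KO against -1.36 in the held-out WT list 3.

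**Figure D4:**
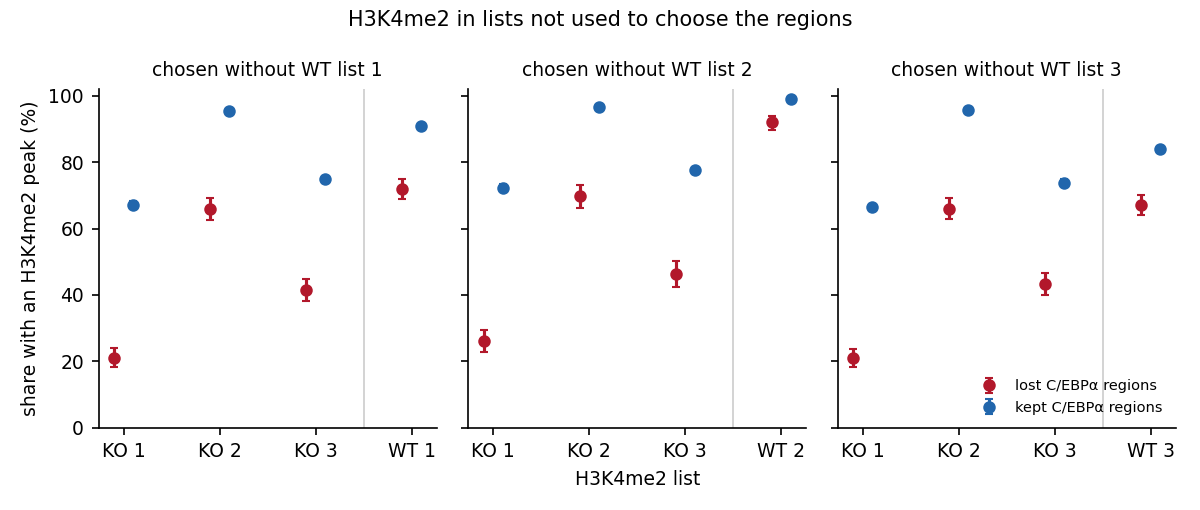
Share of lost and kept C/EBPα regions with an H3K4me2 peak (%) in the 3 KO lists and in the WT list not used to choose the regions, with exact 95% intervals over regions; each panel leaves out another WT list. KO list 2 is close to the held-out WT list in the panels for WT lists 1 and 3 (65.9% against 71.9%, and 66.0% against 67.1%), and KO lists 1 and 3 are lower in all panels.

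Lost regions were also compared between KO and WT lists before the mark was used as a criterion. All 3189 lost regions had H3K4me2 in 6.80%, 30.5% and 23.3% by KO lists 1 to 3, against 32.9%, 56.0% and 33.0% by WT lists 1 to 3. Kept regions had it in 49.3%, 82.5% and 61.0% by KO lists, against 73.3%, 87.6% and 68.3% by WT lists. The log2 odds at lost minus that at kept regions was -3.73, -3.42 and -2.36 in KO and -2.49, -2.47 and -2.13 in WT. The means of -3.17 ± 0.72 in KO and -2.36 ± 0.20 in WT (SD, n = 3 each) differed by -0.81, with a two-sided exact permutation p = 0.3, where 0.1 is the smallest possible. KO lists 1 and 2 lay below all WT lists, and KO list 3 lay among them. With H3K4me2 peaks at or above the pooled median −log10 q alone, the values were -3.68, -3.39 and -2.52 in KO and -2.50, -2.49 and -2.16 in WT. The groups then did not overlap, KO list 3 lay just below the lowest WT list, and the difference was again -0.81, with an exact permutation p = 0.1, the smallest possible. This cut did not act alike on the lists. In KO list 3 the share of kept regions with the mark fell from 61.0% to 18.97%. In the other lists it ran from 49.3% to 87.6% before the cut and from 38.74% to 83.81% after it. The part of this uneven cut in the separation was not tested. Without KO list 3 the difference was -1.21 (exact permutation p = 0.1), and without KO list 1 it was -0.53 (exact permutation p = 0.4).

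Some lost regions lay in the same broad H3K4me2 peak as a kept region. In all 3 WT lists 55 members (8.90%) shared their peak in this way, and 6 of them (10.9%, 4.11 to 22.2) had no mark in KO. Of the 528 members that shared it in no WT list, 110 (20.8%, 17.4 to 24.6) had no mark in KO. Without KO list 3 these shares were 16.4% (7.77 to 28.8) and 26.3% (22.6 to 30.3). Kept, marked regions shared their peak with another kept region in all 3 WT lists in 14.5%, and 0.394% of these had no mark in KO, against 1.62% of those that shared it in none. The strength of the WT mark moved with sharing: the median of the mean WT percentile was 77.5 for members that shared the peak in all 3 WT lists and 48.6 for those that shared it in none, and its part in the result was not tested.

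Listed genes had a lost, marked region nearby at a share near that of all protein-coding genes. Within 10 kb of a gene or in it, a member was found at 504 of the 5403 protein-coding genes with a marked region there, a background of 9.33%. Of the 217 such genes in 21 lists of liver functions, growth, chromatin and cell type markers it was 16 (7.37%), a share near that background for all lists pooled. Plasma protein, complement and coagulation genes had 1 of 30, lipid and lipoprotein genes 1 of 23, cytochrome P450 and xenobiotic genes 1 of 17, immediate early and regeneration genes 1 of 16, urea cycle and amino acid genes 1 of 14, gluconeogenesis and glucose genes 1 of 14, bile acid genes 1 of 12 and iron and heme genes 1 of 10. Hepatocyte transcription factors had 2 of 14, cell cycle genes 2 of 11 and SWI/SNF subunits 2 of 7. None was found near circadian clock genes (0 of 16), growth hormone and IGF genes (0 of 11), growth restraint genes (0 of 9), housekeeping genes (0 of 6) or hepatocyte markers (0 of 6). Biliary (0 of 1), endothelial (0 of 2) and Kupffer cell (0 of 1) markers had none, stellate cell markers had Reln (1 of 1) and oncofetal markers Igf2bp3 (1 of 3). These counts are small and were not tested.

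Cebpa, the gene of C/EBPα itself, had a lost region without the mark in KO. It lay outside genes at 8194 bp from an end of Cebpa (chr7:35130122-35130693) and held an ARID1A peak. H3K4me2 was absent from the KO lists there and stood at percentiles 48.3, 77.9 and 70.0 of WT lists 1 to 3. A kept region lay 1908 bp away, and of the 4 marked regions within 10 kb of Cebpa, 3 were kept. In all 3 WT lists the H3K4me2 peak over the member also held a kept region. Gata4, a zinc finger transcription factor, had its member inside the gene (chr14:63205318-63205826) with H3K4me2 at percentiles 17.3 and 50.6 of KO lists 2 and 3, against 9.1, 21.7 and 17.7 of WT lists 1 to 3. The mark at Gata4 was weak in WT and was still called in 2 KO lists. Its −log10 q was 1.90 and 1.15 in KO lists 2 and 3, against 1.65, 1.91 and 1.70 in WT lists 1 to 3. The peak of KO list 3 covered 2.95% of the region.

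Among genes of plasma and metabolism, the regions at C9 and Cyp7a1 differed in the mark. C9, a component of the complement membrane attack complex, had a member 536 bp from a gene end (chr15:6444444-6444810) with no KO H3K4me2 peak and WT percentiles of 90.2, 78.1 and 86.5, and the mean of these was the highest among members without the mark in KO. A kept C/EBPα region lay 142 bp from the lost one at C9. Cyp7a1, the rate-limiting enzyme of bile acid synthesis, had a member 2445 bp from the gene (chr4:6262772-6263167) marked at percentiles 0.2, 26.6 and 85.1 of KO lists 1 to 3, against 42.0, 48.3 and 34.2 of WT lists 1 to 3. The KO percentiles at Cyp7a1 spread on both sides of the WT ones, the highest being that of KO list 3. The −log10 q itself, which depends on depth, was 1.01, 2.24 and 1.77 in KO lists 1 to 3. In WT lists 1 to 3 it was 3.77, 3.10 and 2.03. Gsta3, a glutathione transferase, had a member inside the gene at 54.7, 78.0 and 75.7 in KO and 73.4, 80.4 and 72.5 in WT. The member near Fasn, the fatty acid synthase, lay in the neighbouring gene Ccdc57 (chr11:120832105-120832384) at 83.7, 70.7 and 77.0 in KO and 55.5, 84.9 and 56.2 in WT. Both of these regions remained marked in every list. Insr, the insulin receptor, and Oat, an aminotransferase of ornithine, had members inside the gene that kept the mark in KO list 2 alone, at percentiles 82.9 and 42.2.

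Among genes of growth, chromatin and iron, Socs3, an inhibitor of cytokine signalling, had 2 members. The member at its gene end (chr11:117970296-117970622) was marked at percentiles 87.8, 81.5 and 94.5 of KO lists 1 to 3 and 84.3, 84.6 and 77.0 of WT lists 1 to 3. The other Socs3 member, 6486 bp outside the gene, was marked in KO list 2 alone. Smarca2, an ATPase of SWI/SNF, had a member inside the gene (chr19:26607846-26608327) at 69.6, 96.3 and 91.3 in KO and 92.1, 89.9 and 78.4 in WT. Arid2, a subunit of the PBAF form, was marked in KO list 2 alone, at 59.3. Both SWI/SNF members had a kept region close by, 833 bp away at Smarca2 and 848 bp away at Arid2. Cdk1, the kinase that drives mitosis, had a member inside the gene (chr10:69341701-69342385) at 2.2 and 37.6 in KO lists 1 and 2, against 76.6, 71.1 and 34.3 in WT lists 1 to 3. The member near Mcm7, a subunit of the replicative helicase, lay at an end of Zfp113 and was marked in all lists. Fth1, the ferritin heavy chain, had a member 72 bp from its end (chr19:9984676-9985039) at 99.3 and 98.2 in KO lists 2 and 3, against 94.7, 97.8 and 96.2 in WT lists 1 to 3, and had no peak in KO list 1. Reln, a stellate cell marker, kept the mark in all 3 KO lists, and Igf2bp3, an RNA-binding protein of fetal tissues, in KO list 2.

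**Figure D5:**
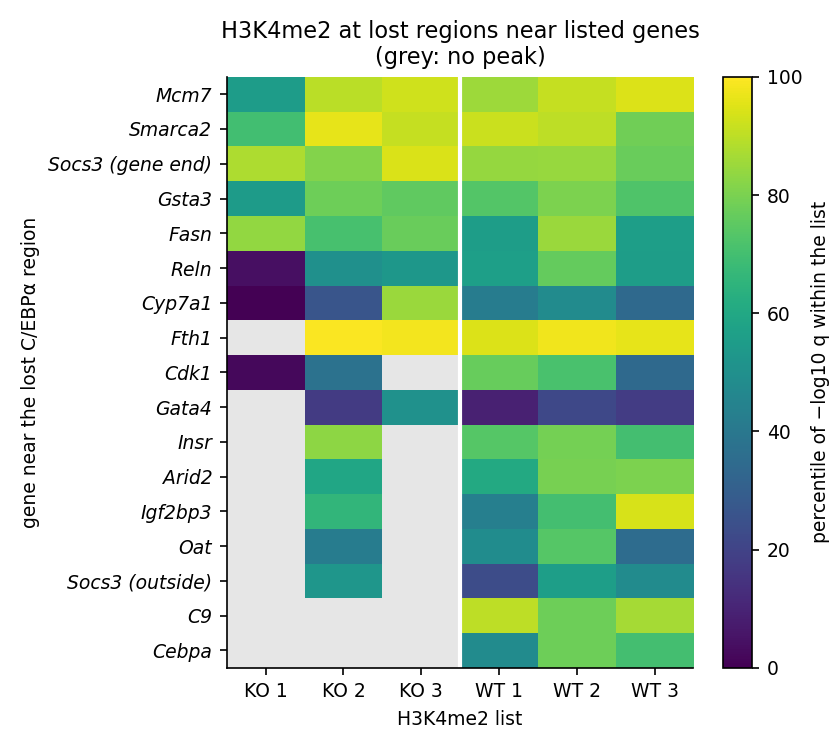
Percentile of −log10 q of the H3K4me2 peak at each lost region within 10 kb of a listed gene, in KO lists 1 to 3 and WT lists 1 to 3; grey is no peak. The regions at C9 and by Cebpa have no peak in KO, and those at Mcm7, Smarca2, Gsta3, Fasn, Reln, Cyp7a1 and the Socs3 gene end have one in every list.

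Metallothionein genes carried lost regions at both neighbours while the mark remained. The member at Mt1 (chr8:94178986-94179616), 103 bp from a gene end, was among the wider ones, with C/EBPα width percentiles of 91.6 and 86.0 in WT lists 1 and 2. H3K4me2 there stood at percentiles 35.6, 79.0 and 93.6 of KO lists 1 to 3, against 71.1, 83.3 and 78.8 of WT lists 1 to 3. The member at Mt2 (chr8:94171187-94171838), 780 bp from a gene end, had width percentiles of 90.3 and 83.7. H3K4me2 at Mt2 stood at 14.9, 82.3 and 67.3 in KO and 48.2, 82.5 and 35.7 in WT. The groups overlapped at both genes. No marked region within 10 kb of either gene had C/EBPα peaks in all 4 lists, and the nearest kept regions were 141623 bp from the Mt1 member and 133824 bp from the Mt2 member.

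Other wide WT peaks that were lost stood at gene ends, inside genes and outside genes. Nat8f5, of the N-acetyltransferase 8 family, had the widest at a gene end (chr6:85820195-85820998), with width percentiles of 96.6 and 96.0 and H3K4me2 in KO lists 1 and 3. Acot5, a peroxisomal thioesterase, followed (chr12:84068709-84069488) with 96.8 and 93.1, and H3K4me2 in KO lists 2 and 3. Pabpc4, a poly(A)-binding protein, had 92.2 and 90.6 (chr4:123299009-123299660) and no mark in KO. Of the 10 widest members, only those at Gm4131 and Aplp2 held an ARID1A peak. Of the others away from gene ends, those inside genes lay in Col25a1, which encodes a transmembrane collagen, Farp1, and Anapc16, a subunit of the anaphase-promoting complex. Outside genes, 1 lay 5449 bp from Olfr695, an olfactory receptor gene, and had the mark in all 3 KO lists. The rest outside genes lay 31776 bp from Sipa1l2 and 13769 bp from Slc13a5, the citrate transporter of hepatocytes. At Col25a1, Sipa1l2, Anapc16 and Slc13a5 no KO list had the mark, and at Farp1 list 2 did. The Slc13a5 region lay 48 bp from a kept region, the shortest such distance of any member.

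Strong WT marks that were absent from every KO list stood near genes of diverse roles. After C9 came Tigar, a phosphatase that limits glycolysis, with a member inside the gene (chr6:127106630-127107085) at percentiles 84.8, 83.9 and 84.0 of WT lists 1 to 3. Bcl6, a transcriptional repressor, was the nearest gene to a member 95116 bp away (chr16:24083982-24084412) at 76.4, 78.5 and 91.9 in WT. Mrpl39, of the mitochondrial ribosome, and Rasgrf2, a Ras exchange factor, completed the 5 highest, at 86.8, 93.3 and 65.8 and at 91.7, 70.1 and 74.9 in WT. At the opposite end were members whose mark in KO was among the strongest of its list. Tor3a, of the torsin ATPase family, had a member at a gene end (chr1:156674305-156674856) at 98.9, 98.9 and 99.9 in KO and 99.0, 85.7 and 92.2 in WT. Extl2, whose sequence is shown above, had 98.5, 99.2 and 99.3 in KO and 99.7, 99.7 and 96.1 in WT. Trmt9b, of a tRNA methyltransferase family, had 96.4, 90.6 and 98.6 in KO and 83.1, 99.4 and 93.3 in WT. All of these regions were marked in each H3K4me2 list.

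Most genes with a lost, marked region had a single such region. Of the 504 genes, 472 had 1 member within 10 kb, 29 had 2 and 3 had 3, and 244 had no kept, marked region there. The 504 genes rest on 447 members, since a region can lie near more than 1 gene. Of all 5403 protein-coding genes with a marked region within 10 kb, 4935 had a kept, marked one. Where the member is the only marked region of a gene, the lack of a kept one follows from the rule. Fam222a had 3 members among 3 marked regions, and 2 of these, at its gene end and 1711 bp from it (chr5:114568772-114569125 and chr5:114569962-114570344), lay in the same H3K4me2 peak in each list, at 86.2, 96.5 and 91.3 in KO and 93.6, 83.8 and 80.4 in WT. Pde4b, a cyclic AMP phosphodiesterase, had 3 members among 5 marked regions, and Sox5, an HMG-box transcription factor, 3 among 10. Genes with 2 or more members and no kept, marked region numbered 13. Cdh1, the E-cadherin of epithelial junctions, was among them, with 2 members inside the gene. The first (chr8:106605524-106606056) held an ARID1A peak and stood at H3K4me2 percentiles 67.3, 64.3 and 53.3 of WT lists 1 to 3, and the second (chr8:106611037-106611674) at 23.0, 36.9 and 5.8. No KO list had the mark at either. The other genes of this kind were Fam222a, Col25a1, Fabp12 and Urah, Maml3, a Notch coactivator, Mb21d2, Mt1, Mt2, Myh9, a non-muscle myosin heavy chain, Niban2, Plekhm3 and Traf3ip2, an adaptor of interleukin-17 signalling. Mt1 and Mt2 count the same 2 members, since each of these regions lies within 10 kb of both genes.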

How the data were processed

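Chromatin immunoprecipitation libraries of perfused hepatocytes were analysed from 11 deposited peak lists, and the 10 input samples were not used here. Per the submitters' processing notes the build was mm10 and the tools were HOMER, MACS2 2.0.10.20131216, Bowtie2 2.2.3 and Picard, with no role or order given. Per the labels, H3K4me2 libraries differed from the others in kit and sequencer, so targets were compared only by overlap. The deposited C/EBPα and V5 lists hold coordinates alone. They contain 40.0% to 40.1% of the numbered peaks, and no source used here says how these were picked. The deposited H3K4me2 lists add a score, a fold over local background, and a −log10 p and q for each peak from the authors' peak caller (the −log10 values), and the lowest −log10 q is between 1.00 and 1.02. Only −log10 q was used, as a percentile within a list. The value itself was used in the cut at the pooled median and is printed at Cyp7a1 and Gata4. Read numbers and depth are unknown.

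C/EBPα peaks sharing 1 bp were merged across the 4 lists, and regions were classed by the lists with a peak in them. Members and gene lists were chosen with earlier results of these data known. Genes came from RefSeq GRCm38, the assembly of mm10 (21887 protein-coding genes, all 365 listed genes matched). Its gene table has no strand, so a gene end is 1 kb on each side of either end. Promoter and miRNA sequences are RefSeq GRCm38.p6. Percent intervals are exact Clopper-Pearson intervals, and KO and WT libraries were compared by exact permutation tests, two-sided, with a threshold of 0.05 that none of these designs can reach. No p-value was computed over regions or genes.

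Named genes are those of the lists with a member within 10 kb, the nearest genes of the 10 widest members, of the 5 widest with ARID1A, of the 5 widest at gene ends, of the 5 with the strongest WT mark and none in KO, of the 5 with the strongest mark in all KO lists and of those nearest to the rule's limits, and the genes with the most members. A gene that this rule names is not reported here. Genes named with a promoter sequence or a miRNA, and Cdh1 with the other genes that have no kept region, were chosen after their values were seen. Alternatives covered H3K4me2 and C/EBPα thresholds, overlap, windows, strata and leaving out each list. The overlap code was tested on simulated peaks. Python 3.11.15, numpy 2.4.6, pandas 2.3.3, scipy 1.17.1 and matplotlib 3.10.9 were used.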

Additional observations from a re-analysis of the deposited data

How the results depend on the processing

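The lower share of H3K4me2 in KO lists at members than at kept, marked regions held in 19 of 19 alternatives, between -37.5 and -22.9 points, with p-values of 0.25 (or 0.5 with 2 KO lists) that are the smallest those designs allow. Values moved mostly with the lists used. Leaving out each list in turn gave 672 to 1488 members, 12.03% to 46.0% of members without the mark in KO, 8.45% to 10.99% with ARID1A, a difference in ARID1A from kept regions of -24.7 to -21.7 points, 9.66% to 18.01% at gene ends, 31.6% to 40.1% outside genes, and a KO minus WT difference in log2 odds of -1.21 to -0.53 over all lost regions. With at least 50% of the region covered by the mark there were 356 members. With C/EBPα peaks no narrower than the pooled median of 395 bp there were 397, of which 18.9% had ARID1A, -26.4 points from kept regions. The ARID1A difference was -16.0 points within strata of width and -29.4 within strata of the WT mark. Gene ends held 16.4% of members with H3K4me2 peaks at or above the pooled median −log10 q of 1.88, 29.1% with a window of 5 kb and 8.09% with 500 bp, and 32.0% then lay outside genes at 5 kb. Within 50 kb, 29 listed genes had a member, against 16 within 10 kb. At 50 kb this was 10.3% of listed genes with a marked region, against 11.3% of all such protein-coding genes. The causes were not tested.

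Replicate numbers of KO and WT libraries are shared in the labels, with nothing that pairs the animals. With the replicate block the difference in log2 odds was -0.81 (exact sign-flip permutation p = 0.25, the smallest possible), as without it (p = 0.3). Unknown depth, a C/EBPα list holding part of the numbered peaks, and an ARID1A list without a replicate limit every share given here.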
